A study of Mus musculus with 42 samples.

Results

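The right side of the heart field was compared between mouse embryos with mirror-image and with normal laterality, gene by gene, in tissue of the stage labelled E8.5i. It used 15 right libraries, of the 42 left and right libraries from 21 embryos in the whole series. The situs inversus totalis group held the right libraries of 5 Ccdc40lnks/lnks mutants with inverted heart looping (2_7, 4_6, 10_3, 18_2 and 32_2; 3 male and 2 female). The situs solitus group held those of 10 embryos with rightward looping (6 male and 4 female), namely the 5 wild types (Ccdc40+/+; 7_1, 8_1, 10_1, 17_7 and 22_4) and 5 Ccdc40lnks/lnks mutants (1_6, 2_2, 17_1, 19_6 and 22_1). The lnks allele is a nonsense point mutation in *Ccdc40*, a gene needed for the beating of motile cilia, and all inverted embryos but only part of the situs solitus group carried it. The other 6 mutants with rightward looping make up the study's heterotaxy cluster and are outside this comparison. They enter where groups were set by the labels, and as a group of their own in an alternative fit of all 21 right libraries. The 5 mutants of the situs solitus group were chosen by measured values, since the study formed its laterality clusters on the left-right differences of genes that are asymmetric in wild types. Inverted looping itself is a label. Genes chosen for that asymmetry are therefore described here for the cluster comparison and tested between groups set by the labels. Counts over all genes in the cluster comparison include them.

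In the normal embryo, the left lateral plate mesoderm receives the signal of NODAL, a secreted ligand of the TGF-beta family. NODAL induces its own antagonists, LEFTY1 and LEFTY2, which limit how far and how long it acts. The heart field at this stage supplies progenitors to both poles of the looping heart tube, and its left and right sides contribute different parts. The question is which genes have another level on the right when laterality is inverted.

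Counts per library ranged from 36073684 to 62970327 (median 42256054) in situs inversus totalis and from 36572530 to 53644892 (median 43639087) in situs solitus. Levels are given in CPM, the share of a gene in the TMM-corrected total of its library in the usual unit. The level of *Ccdc40* was 16.1 to 26.6 CPM in the wild types, 10.6 to 14.5 CPM in the situs solitus mutants and 10.1 to 13.6 CPM in the inverted mutants, so the wild types lay above all mutants. Along the first principal component of 500 variable genes, which held 46.1% of the variance, the situs solitus libraries 2_2 and 10_1 stood apart, at -21.5 and -17.0 against -4.27 to 8.99 for the others. Embryo 2_2 had the least cardiac muscle and visceral endoderm transcript, and 10_1 had the most paraxial mesoderm and glycolysis transcript. Counts of gene lists that move by over 1.5 times without them, and named genes whose unadjusted p crosses 0.05, are also given without them. The tissue is a bulk dissection, in which fewer cells of a type and less RNA per cell cannot be told apart.

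Over all 24009 genes tested, 0 (0%) passed an adjusted p of 0.05 by the quasi-likelihood test of edgeR after Benjamini-Hochberg correction, and the smallest adjusted p was 0.119. An unadjusted p under 0.05 was found for 1693 genes (7.05%), of which 1008 had higher levels in situs inversus totalis (4.2%) and 685 lower levels (2.85%). Without 2_2 and 10_1 these were 747 higher (3.15%) and 680 lower (2.87%) of 23688 genes. DESeq2 called 77 genes (0.321%), 51 higher (0.212%) and 26 lower (0.108%). For 37 genes (0.154%) the CPM of the groups did not overlap, with 22 higher in all inverted libraries (0.0916%) and 15 lower (0.0625%). Of the genes called by DESeq2, 18 were among these. Genes chosen by asymmetry, whose difference the grouping favours, made up 5 of the 77 and 3 of the 37.

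**Figure D1:**
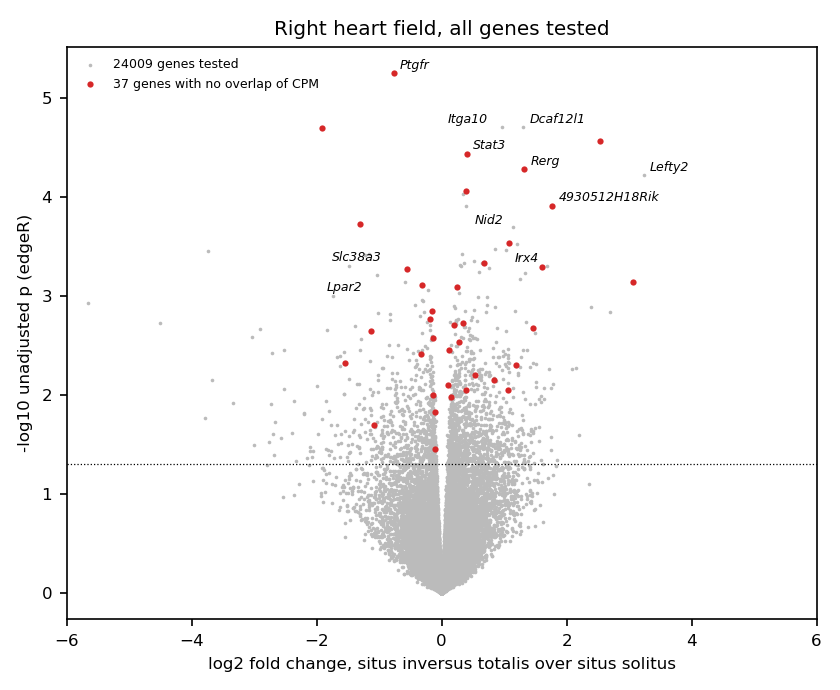
Each point is a gene, with the log2 fold change of situs inversus totalis over situs solitus on the right along the horizontal axis and -log10 of the unadjusted p of edgeR on the vertical axis. At an unadjusted p under 0.05, 1008 genes lie on the higher side and 685 on the lower side, and none of the 24009 genes passed an adjusted p of 0.05.

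*Lefty2* (chromosome 1, 180720635 to 180726932, GRCm39), a secreted NODAL antagonist, was low everywhere but in one library. It measured 28.0 CPM in 2_7, 3.56 in 4_6, 1.55 in 10_3, 2.65 in 18_2 and 2.20 in 32_2. In situs solitus the lowest level was 0, in 2_2, with a median of 0.424 and a highest level of 2.39 CPM, in 19_6. The groups overlapped, with 3 of 5 inverted libraries above the highest situs solitus library. Its log2 fold change was 3.23 (SE 0.60), or 2.41 without 2_7, and its adjusted p was 0.177 in edgeR and 0.00974 in DESeq2. On the left of the same embryos, with all 42 libraries scaled together, the order was the opposite, with 2.17 ± 1.64 CPM in situs solitus and 0.276 ± 0.145 CPM in situs inversus totalis. *Nodal* itself was close to the limit of detection on the right, with a mean of 0.0919 CPM in situs inversus totalis and 0.063 CPM in situs solitus, and it did not pass the filter on low counts. *Lefty1*, a midline antagonist, had means of 0.199 and 0.169 CPM.

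The long non-coding RNA *4930512H18Rik* (chromosome 8, 62301804 to 62375868) was among the genes chosen by asymmetry. It had 2.30 CPM in 2_7, 2.95 in 4_6, 2.36 in 10_3, 3.47 in 18_2 and 3.43 in 32_2, and between 0.145 and 1.70 CPM (median 0.799) in situs solitus, without overlap. *Dcaf12l1* (X chromosome, 43875444 to 43879205) belongs to a family of substrate receptors of ubiquitin ligases. It had 24.7, 38.1, 21.5, 30.2 and 24.6 CPM in 2_7, 4_6, 10_3, 18_2 and 32_2, against 7.01 to 22.6 CPM (median 10.96) in situs solitus. Only the mutant 1_6, at 22.6 CPM, reached into the inverted range.

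These genes could be tested between groups set by the labels alone. Against all 11 mutants with rightward looping, which share the genotype of the inverted embryos, 2 of 24149 genes (0.00828%) were called by edgeR and both were higher in inverted embryos. Of these 11 mutants, 6 are in the study's heterotaxy cluster, so this is not a comparison with normal laterality alone. The lncRNA *4930512H18Rik* rose with a log2 fold change of 1.84 (SE 0.24, adjusted p = 0.0187). In this comparison 1098 genes (4.55%) had an unadjusted p under 0.05, and DESeq2 called 35 (0.145%). *Dcaf12l1* had a log2 fold change of 1.28 (SE 0.20) and *Lefty2* of 2.89 (SE 0.51), with adjusted p-values of 0.0502 and 0.122 from edgeR. With each library left out in turn, *Dcaf12l1* ran from 1.10 to 1.40 and was called in 3 of 16 fits. *Lefty2* ran from 2.17 without 2_7 to 3.19 without 32_2, with adjusted p-values of 0.812 and 0.0433 in edgeR, and was called in 1 of the 16. The 6 mutants with rightward looping outside the situs solitus group had between 0.417 and 1.47 CPM of *4930512H18Rik*, all below the inverted libraries. Whether *4930512H18Rik* passed the adjusted threshold depended on which library was left out. When each library was left out in turn, *4930512H18Rik* was called in 11 of 16 fits, with a log2 fold change of 1.70 to 2.02. Its adjusted p in edgeR became 0.0717 without 10_3, 0.0733 without 18_1, 0.0917 without 18_2, 0.0624 without 3_7 and 0.0704 without 4_6. Against the 5 wild types, 0 of 23109 genes (0%) were called by edgeR, 1369 (5.92%) had an unadjusted p under 0.05 and DESeq2 called 114 (0.493%). *4930512H18Rik* had a log2 fold change of 1.87 there (SE 0.46, adjusted p = 0.746 in edgeR).

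**Figure D2:**
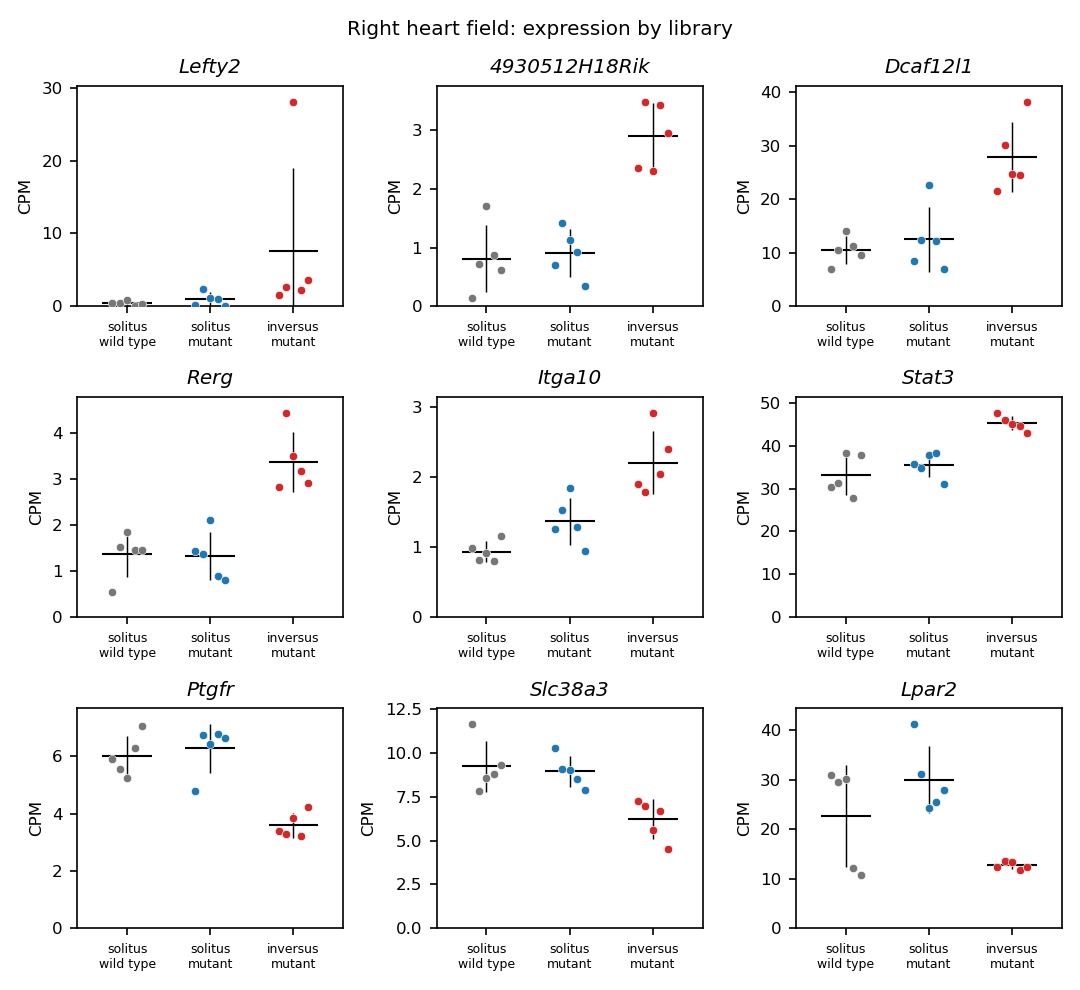
CPM of single genes in each right library (points), with the mean and SD, for the wild types and mutants of the situs solitus group and the inverted mutants. *4930512H18Rik* lies between 2.30 and 3.47 CPM in all inverted libraries and at most at 1.70 CPM in situs solitus, while *Ptgfr* lies lower in all inverted libraries.

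*Ptgfr* (chromosome 3, 151502139 to 151543267), the receptor of a prostaglandin, had the smallest p of all genes in edgeR and is right-sided in situs solitus. It measured 3.83 CPM in 2_7, 4.23 in 4_6, 3.39 in 10_3, 3.30 in 18_2 and 3.20 in 32_2, against a lowest level of 4.79, a median of 6.35 and a highest of 7.05 CPM in situs solitus. The groups did not overlap. The log2 fold change was -0.77 (SE 0.12), the adjusted p was 0.119 in edgeR and 3.9e-08 in DESeq2. On the left the means were 6.55 ± 1.24 CPM in situs inversus totalis and 4.02 ± 1.19 CPM in situs solitus. Against rightward mutants the log2 fold change was -0.69 (SE 0.13, adjusted p = 0.158 in edgeR).

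Other lower genes on the inverted right are given with their levels. *Ism1*, which encodes the secreted protein isthmin 1, had 2.06 ± 0.589 CPM (SD, n = 5) against 3.54 ± 1.18 CPM (SD, n = 10), a log2 fold change of -0.75 (SE 0.25), and the groups overlapped. *Slc38a3*, a glutamine transporter, had 4.51 to 7.28 CPM in situs inversus totalis and 7.85 to 11.6 CPM in situs solitus, without overlap, and a log2 fold change of -0.55 (SE 0.13). *N4bp3*, *Swap70* and *Dctd* also did not overlap between groups, at log2 fold changes of -0.32, -0.15 and -0.18. *Lpar2*, a receptor of lysophosphatidic acid, had 11.8 to 13.7 CPM in situs inversus totalis and 10.8 to 41.1 CPM in situs solitus. Its low situs solitus values were those of the wild types 7_1 and 8_1, so that the groups overlapped. The log2 fold change of *Lpar2* was -1.04 on the right and -1.09 on the left. Of the rightward mutants outside the situs solitus group, 15_5, 18_1 and 19_4 also lay low, at 13.1, 13.2 and 15.0 CPM. With only the 5 mutants as situs solitus group, *Lpar2* fell by 1.27 on the log2 scale (adjusted p = 0.0247 in edgeR).

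**Figure D3:**
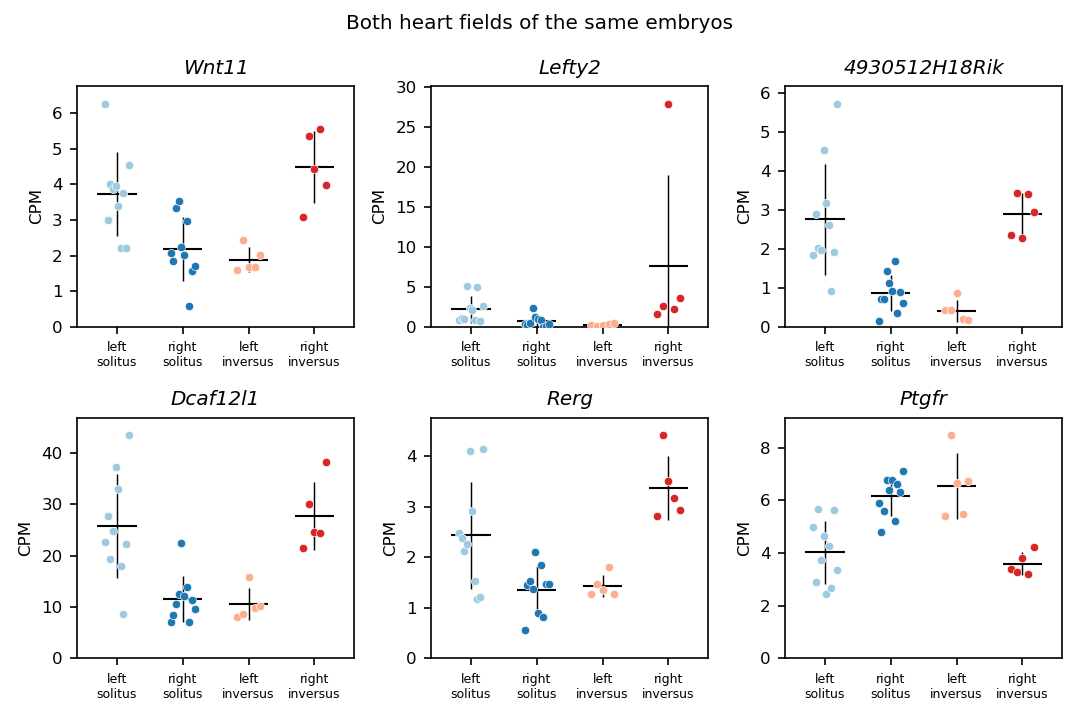
CPM of single genes on the left and right of situs solitus and situs inversus totalis embryos (points), with the mean and SD and all 42 libraries scaled together. The mean of *Lefty2* is higher on the left in situs solitus and on the right in situs inversus totalis, and that of *Ptgfr* is higher on the right in situs solitus and on the left in situs inversus totalis.

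The BMP ligands are secreted growth factors that pattern the lateral plate and the inflow of the heart. Of 19 measured BMP ligands and antagonists, 4 were higher and 1 lower at an unadjusted p under 0.05 (4.2% and 2.85% of all genes), and 0 passed the adjusted threshold of edgeR. *Bmp2* had 48.7, 48.2, 33.9, 58.0 and 48.7 CPM in 2_7, 4_6, 10_3, 18_2 and 32_2, against 9.55 to 42.5 CPM (median 32.0) in situs solitus, where the lowest library was 2_2. The log2 fold change of *Bmp2* was 0.72 (SE 0.26). *Bmp4* averaged 80.9 ± 13.2 and 56.3 ± 16.6 CPM, a log2 fold change of 0.54 (SE 0.18). *Bmper*, which encodes a secreted modulator of BMP, averaged 13.0 ± 2.28 and 7.94 ± 2.25 CPM, with a log2 fold change of 0.72 (SE 0.18) and an adjusted p of 0.0364 in DESeq2. The antagonist *Fst* went the other way, with 28.7 against 48.5 CPM and a log2 fold change of -0.69. All 13 BMP response genes had a positive log2 fold change, with a median of 0.266, but only *Smad7* had an unadjusted p under 0.05. Without 2_2 and 10_1, 12 of the 13 were positive, 2 had an unadjusted p under 0.05 (3.15% of all genes higher in that fit), and the median was 0.146.

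Of 25 genes of the venous pole, atrioventricular canal and cardiopulmonary progenitors, 5 were higher and 0 lower at an unadjusted p under 0.05 (4.2% and 2.85% of all genes). They included *Gal*, *Osr1*, *Bmp2* and *Ccn4*. Of the 5, 2 are among the genes chosen by asymmetry, *Ccn4* being one, and without the chosen genes 3 of 23 were higher, with a median log2 fold change of 0.354. Without 2_2 and 10_1, 4 of these 23 were higher, with a median of 0.139. The galanin gene *Gal* had 9.99 CPM in 2_7, 8.82 in 4_6, 0.836 in 10_3, 4.03 in 18_2 and 9.59 in 32_2, against 0.022 to 3.09 CPM (median 1.95). Library 10_3 thus lay within the situs solitus range and the others above it. *Osr1*, a transcription factor of posterior heart progenitors, averaged 64.3 ± 8.13 against 42.8 ± 22.7 CPM, with 1_6 at 97.9 CPM. The median of the whole list was a log2 fold change of 0.436, and it was 0.15 without 2_2 and 10_1.

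WNT ligands, receptors and secreted modulators had a median log2 fold change of -0.0315, near the median of all genes of -0.00289. Of 55 measured, 5 were higher and 3 lower at an unadjusted p under 0.05 (4.2% and 2.85% of all genes). Without 2_2 and 10_1 there were 3 higher and 2 lower (3.15% and 2.87% of all genes). *Wnt11*, a ligand of non-canonical signalling, had 4.42, 3.98, 3.10, 5.40 and 5.58 CPM in 2_7, 4_6, 10_3, 18_2 and 32_2, against 0.572 to 3.53 CPM (median 2.05). Only 10_3 lay within the situs solitus range, and the log2 fold change was 1.04 (SE 0.29, adjusted p = 0.573 in edgeR). The WNT agonist *Rspo3* averaged 9.92 ± 2.09 and 5.34 ± 1.59 CPM, with a log2 fold change of 0.89 (SE 0.24). *Fzd10*, a receptor, had the opposite sign, with 2.10 against 3.93 CPM and a log2 fold change of -0.83, which was -0.57 without 2_2 and 10_1, where its unadjusted p of 0.0464 in edgeR became 0.078. Of the 18 WNT targets and feedback genes, *Ccn4* is among those chosen by asymmetry, and of the other 17, 0 were higher and 2 lower at an unadjusted p under 0.05, or 1 lower without 2_2 and 10_1.

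The study named 17 of its laterality genes that were not chosen by asymmetry here. They were picked on these same libraries, so their values are a description. The log2 fold change was positive for 12 and negative for 5, from -0.83 for *Fzd10* to 3.23 for *Lefty2*. The groups did not overlap for 1 of the 17, *Ptgfr* (0.154% of all genes). With all 15 libraries the log2 fold change was 0.83 (SE 0.41) for *Shox2*, 0.67 (SE 0.45) for *Misp3*, 0.53 (SE 0.49) for *Wnt2*, 0.09 (SE 0.64) for *Lefty1* and -0.38 (SE 0.31) for *Sfrp2*. In the same order, it was 0.49, 0.37, 0.25, 0.33 and -0.21 without 2_2 and 10_1. *Wnt16* had 0.566 against 0.946 CPM and a log2 fold change of -0.71 (SE 0.32), or -0.49 without 2_2 and 10_1. Its unadjusted p in edgeR was 0.0392 with all 15 libraries and 0.101 without 2_2 and 10_1. *Retreg1*, a receptor for the turnover of endoplasmic reticulum, averaged 6.90 ± 2.91 against 3.91 ± 1.95 CPM, with a log2 fold change of 0.81, or 0.61 without 2_2 and 10_1. *Trabd2b*, which encodes a membrane protease that inhibits WNT ligands, had 6.36 to 9.16 against 3.37 to 7.96 CPM, with a log2 fold change of 0.42, or 0.27 without 2_2 and 10_1. The ranges of both genes overlapped between the groups. *Hspb8* encodes a small heat shock protein, with 10.8 ± 2.44 against 6.54 ± 1.66 CPM. Against all rightward mutants its log2 fold change was -0.30, which rested on 15_5 at 70.8 CPM. Without 15_5 it was 0.39 (SE 0.26, adjusted p = 0.886 in edgeR).

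Of 36 measured extracellular matrix genes 9 were higher and 0 lower at an unadjusted p under 0.05 (4.2% and 2.85% of all genes), 31 had a positive log2 fold change, and the median was 0.163, or 0.152 without 2_2 and 10_1. The list holds 4 genes chosen by asymmetry, *Col1a1*, *Col3a1*, *Postn* and *Dcn*, and *Col3a1* is one of the 9. Of the other 32 genes, 8 were higher and 0 lower, 27 had a positive log2 fold change, and the median was 0.147. *Col5a1*, a fibrillar collagen chain, had 76.8, 63.4, 65.3, 55.8 and 73.6 CPM in 2_7, 4_6, 10_3, 18_2 and 32_2, against 27.9 to 60.7 CPM (median 43.1). Only 18_2 lay within the situs solitus range, with a log2 fold change of 0.60 (SE 0.14, adjusted p = 0.387 in edgeR and 0.00985 in DESeq2). Without 2_2 and 10_1, 6 of the 32 were higher (3.15% of all genes). *Sparc*, *Tnc* and *Fbn1* were also among the members with an unadjusted p under 0.05. Outside the list, *Nid2*, a basement membrane protein, averaged 303 ± 25.9 and 231 ± 28.5 CPM, with a log2 fold change of 0.40 (SE 0.08). *Itga10*, an integrin collagen receptor, averaged 2.21 ± 0.455 and 1.15 ± 0.333 CPM, a log2 fold change of 0.96 (SE 0.16) and an adjusted p of 0.119 in edgeR.

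Among genes of other functions, *Stat3*, a transcription factor of cytokine signalling, had 45.1, 43.0, 47.5, 46.0 and 44.5 CPM in 2_7, 4_6, 10_3, 18_2 and 32_2 and 27.9 to 38.4 CPM (median 35.2) in situs solitus, without overlap. This was a log2 fold change of 0.40 (SE 0.07, adjusted p = 0.145 in edgeR), but it was 0.15 against all rightward mutants. Of these, 15_5 stood at 87.9 CPM with all 42 libraries scaled together, and without it the log2 fold change was 0.33 (SE 0.05, adjusted p = 0.0491 in edgeR). *Rerg*, which encodes a small GTPase of the RAS family, averaged 3.38 ± 0.65 and 1.35 ± 0.475 CPM and did not overlap, with a log2 fold change of 1.32 (SE 0.24). Against the rightward mutants the log2 fold change of *Rerg* was 1.34, with an adjusted p of 0.0531 in edgeR. The transcription factor *Irx4* averaged 3.11 ± 0.656 and 1.53 ± 0.498 CPM.

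Of 22 measured genes of glycolysis and hypoxia, 9 were lower and 1 higher at an unadjusted p under 0.05 (2.85% and 4.2% of all genes), and 6 had a positive log2 fold change. The median over the list was -0.124. Of the 22, 7 were lower without 2_2 and 10_1, with a median of -0.0595. The lower members held *Pdk1*, a kinase that inhibits pyruvate dehydrogenase, with 200 ± 7.84 against 245 ± 26.8 CPM and a log2 fold change of -0.29 (SE 0.07), as well as *Pgk1*, *Pfkl* and *Ldha*. *Hk1*, a hexokinase, had the opposite sign, with 72.2 ± 15.4 against 48.8 ± 12.5 CPM and a log2 fold change of 0.58 (SE 0.15). The situs solitus mutant 1_6 was at 82.4 CPM.

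**Figure D4:**
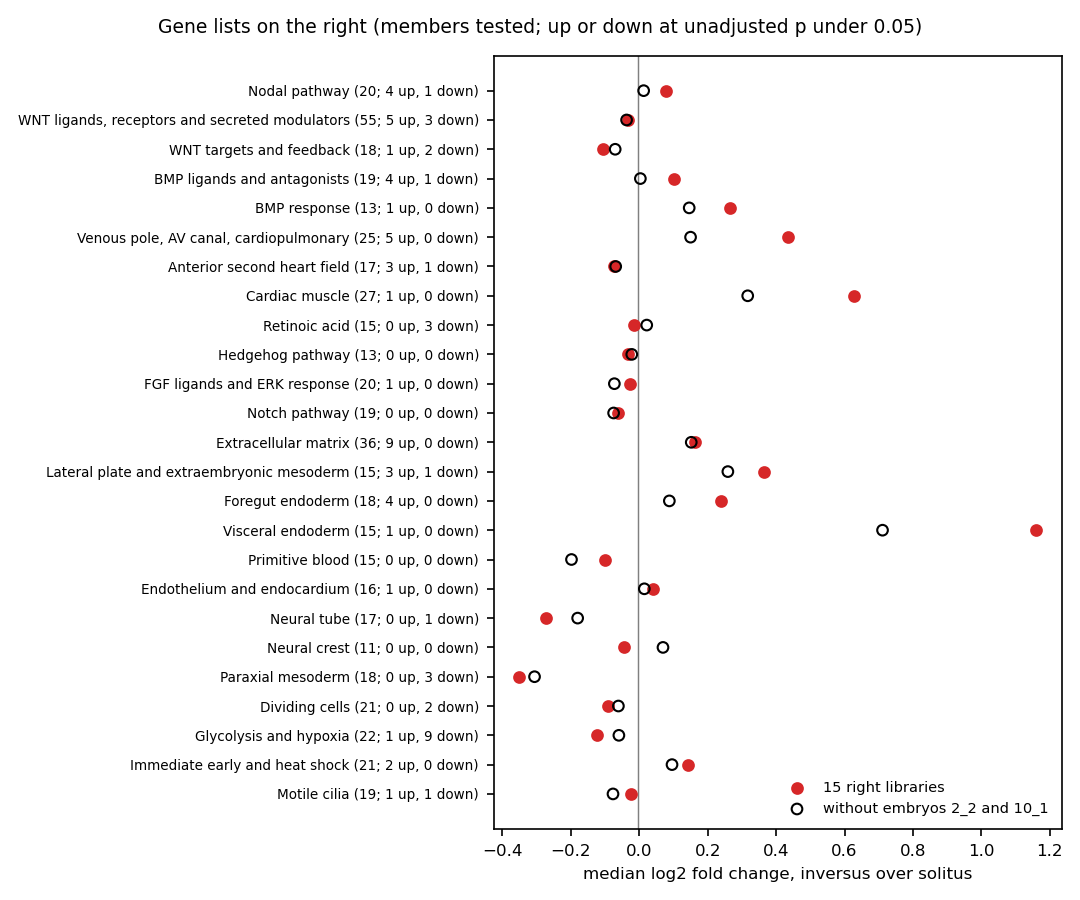
Median log2 fold change of each gene list on the right, situs inversus totalis over situs solitus, for all 15 libraries and without 2_2 and 10_1, with the numbers of members tested and of members up or down at an unadjusted p under 0.05. With all 15 libraries, visceral endoderm has the highest median (1.16) and paraxial mesoderm the lowest (-0.35).

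Marker lists of tissues that can be taken along in the dissection were summed in each library. All 15 visceral endoderm genes had a positive log2 fold change, with a median of 1.16 (0.711 without 2_2 and 10_1), and 1 was higher at an unadjusted p under 0.05 (4.2% of all genes), or 2 without 2_2 and 10_1 (3.15%). Their summed level was 387 to 1750 CPM in situs inversus totalis and 30.8 to 993 CPM in situs solitus. Only 10_3 and 18_2, at 1640 and 1750 CPM, lay above the situs solitus range, with 2_7, 4_6 and 32_2 at 420, 387 and 610 CPM. Paraxial mesoderm markers summed to 121 to 188 CPM and 125 to 377 CPM, with a median log2 fold change of -0.35, and 3 of 18 genes, *Pax3*, *Myf5* and *Meox1*, were lower at an unadjusted p under 0.05 (2.85% of all genes), or 4 of 17 without 2_2 and 10_1 (2.87%). Neural tube markers summed to 201 to 728 and 212 to 769 CPM. Cardiac muscle genes had a median log2 fold change of 0.629 and sums of 3860 to 8140 and 651 to 8740 CPM, and 1 of 27, *Tnni3*, was higher at an unadjusted p under 0.05 (4.2% of all genes). Without 2_2 and 10_1 their median was 0.317 and 5 were higher at an unadjusted p under 0.05 (3.15% of all genes). The part of these tissues in the differences named above was not tested. Of 15 retinoic acid genes, 0 were higher and 3 lower at an unadjusted p under 0.05 (2.85% of all genes), led by *Stra6*, and without 2_2 and 10_1 only 1 was lower (2.87% of all genes) and *Stra6* had an unadjusted p of 0.0621 in edgeR. The hedgehog and Notch genes had 0 of 13 and 0 of 19 in either direction.

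**Figure D5:**
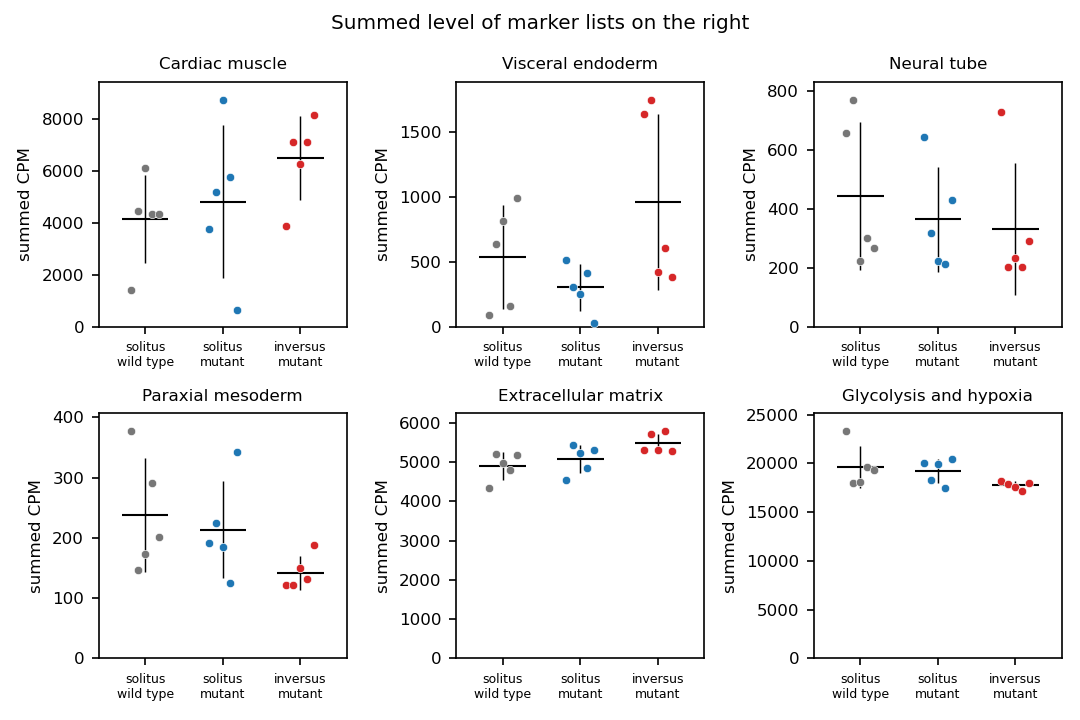
Summed CPM of marker lists in each right library (points), with the mean and SD, for the wild types and mutants of the situs solitus group and the inverted mutants. The ranges of the groups overlap for visceral endoderm, paraxial mesoderm, neural tube and cardiac muscle.

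The study formed its clusters on asymmetric genes that it had also restricted to myocardial lineages. The overlap of that list with the genes chosen by asymmetry here was not tested. Here DESeq2 called 96 genes asymmetric between left and right in the wild types. Of these, 30 kept one sign of the left-right difference in each wild type embryo, and they give a description of the selection. All 23 that were higher on the left of situs solitus had a positive log2 fold change on the right of situs inversus totalis, and all 7 that were higher on the right had a negative one, which the choice of groups favours. Sizes ran from -0.91 for *Tcf15* to 3.06 for *Gm43697*. Between groups set by the labels, inverted against rightward mutants, 12 of the 30 had an unadjusted p under 0.05 and 9 of these were higher, against 4.55% and 2.52% of all genes, and 2 passed the adjusted threshold of edgeR. The 30 genes were selected on wild types of these libraries and hold *Ret*, a receptor tyrosine kinase, with a log2 fold change of -0.58, and *Igfbpl1* with -0.49, both negative in that comparison without passing the adjusted threshold of edgeR. DESeq2 called *Igfbpl1* there.

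For 253 of 25623 genes (0.987%) the difference between the groups on the right departed from that on the left at an adjusted p of 0.05 in edgeR, with the embryo as a block and 33 without it. The clusters were formed on left-right differences, so this count describes the selection.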

How the data were processed

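RNA from the left and right heart field of each embryo was made into poly-A libraries from 10 ng of total RNA with PCR amplification and sequenced in pairs. The authors trimmed reads, removed duplicates, aligned them to GRCm39 with STAR, and deposited raw counts per gene from featureCounts (Subread 2.0.6), which were used without change. The counting options for strand and shared reads are not given in the sources used here, so counts of overlapping genes and near-identical copies are uncertain. GENCODE held 56310 of 56953 identifiers.

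Right libraries were fitted with edgeR 4.0.16 in R 4.3.3 (TMM, quasi-likelihood, sex as covariate) after filterByExpr with a minimum of about 5 counts per library and 10 in total, in a share of 0.2 of the smaller group once it exceeds 50 libraries. P-values were adjusted over all genes by Benjamini-Hochberg at 0.05. DESeq2 1.42.0 was the main alternative. In 1 set of simulated data, 100 genes had a log2 change of 1 between the groups and 100 others a change of 2. Of these, edgeR called 93 and 98, and DESeq2 called 95 and 98. Among all unchanged genes of the same data, edgeR called 7 and DESeq2 called 43. Other alternatives were scalings, filters, covariates, males alone, other sample sets, and each library left out in turn. The interaction of side and cluster carried the embryo as a block, since both sides come from one embryo named in the labels. The 105 pairs of right libraries all differed beyond sampling noise (chi-square per gene of at least 13.19). Each library is 1 embryo.

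The mutants of situs solitus come from the study's clusters, since the labels give only looping. Members and gene lists were chosen with earlier results of these data known. Named genes were to be up to 12 per direction past the threshold with at least 200 counts, 2 to 4 members per list by p, and those the study names. As no gene passed, 15 per direction with the smallest p and at least 100 counts, and those called by labels, were added after their values were seen. List counts without 2_2 and 10_1 or without genes chosen by asymmetry were also added then. The results of 1 gene are not reported here.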

Additional observations from a re-analysis of the deposited data

Results flagged for a closer look

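In 60 groups of values from 29 genes and the library totals, the gap from the highest or lowest library to its neighbour was divided by the range of the group. This share passed Dixon's 95% critical value in 6 groups, and at that level about 1 in 20 groups would be picked by chance. These were *Lefty2* at 28.0 CPM in the inverted 2_7 and at 2.39 CPM in the situs solitus 19_6, *Dcaf12l1* at 22.6 CPM, *Osr1* at 97.9 CPM and *Hk1* at 82.4 CPM in the situs solitus mutant 1_6, and *Rspo3* at 1.32 CPM in 2_2. Embryo 1_6 accounts for 3 of the 6.

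The difference between groups on the right was set against that on the left of the same embryos, with the embryo as a block. Because the clusters were formed on left-right differences, these values are a description and no test. Of the 29 genes, only the 17 not chosen by asymmetry and with an adjusted p under 0.05 in edgeR in that fit are listed. The others were chosen by asymmetry or did not pass. The log2 fold change on the right minus that on the left was positive for *Lefty2* (5.67), *Gal* (2.51), *Wnt11* (2.05), *Rerg* (2.03), *Hspb8* (1.59), *Bmper* (1.58), *Bmp2* (1.45), *Rspo3* (1.26), *Bmp4* (1.23), *Hk1* (1.03), *Itga10* (1.01), *Col5a1* (0.89), *Nid2* (0.71), *Shisa5* (0.62) and *Stat3* (0.51). It was negative for *Ptgfr* (-1.51) and *Ism1* (-1.22).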

How the results depend on the processing

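For situs inversus totalis against situs solitus, edgeR called 0 genes, and this count stayed at 0 with library size alone, DESeq2 size factors, at least 10 counts, no sex term, sex and genotype, males alone, a robust prior, and without 2_2 and 10_1. DESeq2 called 77 (51 higher, 26 lower). No filter on low counts gave 2 (2 higher, with *Dcaf12l1*, chosen by asymmetry). All 21 right libraries gave 4 (3 higher, with *Lefty2* and *Dcaf12l1*, and 1 lower, *Ptgfr*), and situs solitus mutants alone 3 (3 lower, with *Lpar2*). Alternatives chosen after seeing the data gave 2 by labels alone (2 higher) and 8 with newer dispersions (7 higher, 1 lower). The 8 held *Ptgfr* as the lower gene, *Itga10* and *Rerg*, and also *4930512H18Rik* and *Dcaf12l1*, which were chosen by asymmetry. Leaving out each library gave 0 to 2 genes, 0 to 2 higher and 0 to 1 lower. Without 1_6 there were 2, with *Dcaf12l1*, and without 7_1 there was *Gm18180*. Against wild types, 0 genes became 114 with DESeq2 (89 higher, 25 lower) and 4 without a filter (3 higher, 1 lower), and 0 in each fit that left out a library. Against rightward mutants, 2 genes became 35 with DESeq2 (28 higher, 7 lower), 5 without a filter (5 higher), 4 by library size alone (4 higher), and 0 to 7 when libraries were left out, with 7 without 15_5, 5 without 1_6, 4 without 32_2 and 3 without 32_3. The interaction of side and cluster had 253 calls (211 higher, 42 lower), 1328 with DESeq2 (1014 and 314), 445 without a filter (372 and 73), 33 without the block for the embryo pairing (30 and 3), and 50 to 772 with an embryo left out (44 to 605 higher, 5 to 167 lower), the lowest without 32_2 and the highest without 22_4. The causes were not tested.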
